A study of Mus musculus with 12 samples.

Results

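Oxidative phosphorylation (OXPHOS) genes carried by the nucleus were followed in cultured mouse keratinocytes after loss or inhibition of the YAP1/TAZ-TEAD transcription module. Members were taken by gene symbol: Ndufa, Ndufb, Ndufc, Ndufs and Ndufv genes for complex I, Sdha to Sdhd for complex II, Uqcr genes for complex III, the numbered Cox subunits for complex IV and Atp5 genes for complex V, each with a mean of at least 1 CPM (reads of a gene scaled to the size of its library) over 12 libraries. Among 17090 deposited genes, the pattern matched 82 symbols and 77 were kept: 38 for complex I, 4 for complex II, 8 for complex III, 10 for complex IV and 17 for complex V. All 77 passed the filter on low values used for testing, at least 1 CPM in at least 3 libraries. The 5 left out were Ndufb1-ps (53.3 CPM, dropped for its name), Atp5l-ps1, Atp5l2-ps, Cox6b2 (0.764 CPM) and Cox6c2. Among those kept, Atp5s (5.88 CPM) and Ndufb4 (12.0 CPM) had the lowest means. The symbol pattern is not exact: Ndufa4 and its paralog Ndufa4l2 are now placed with complex IV although they are counted here by name with complex I, Atp5s encodes factor B rather than a structural subunit, and Cox4i1, Cyc1 and Ndufab1 are subunits that the pattern misses.

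OXPHOS is the last stage of respiration. Complexes I (NADH dehydrogenase) and II (succinate dehydrogenase) pass electrons to ubiquinone, complex III (cytochrome bc1) passes them on to cytochrome c, complex IV (cytochrome c oxidase) reduces oxygen, and complex V (ATP synthase) uses the resulting proton gradient to make ATP. Complexes I, III, IV and V combine nuclear-encoded subunits, which are made in the cytosol and imported, with core subunits translated from mitochondrial DNA inside the organelle, whereas complex II is wholly nuclear-encoded. Basal keratinocytes respire and also ferment much of their glucose to lactate.

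All 12 libraries came from primary tail-skin keratinocytes of K14-SmoM2 mice, a basal cell carcinoma model with an activated form of the Hedgehog pathway protein Smoothened under control of keratin 14 regulatory sequence, taken 5 weeks after tamoxifen. The cells were grown in low-calcium (60 µM) medium with 10 ng/ml EGF and 10 µM of the kinase inhibitor Y-27632. The first experiment compared siYAP1+TAZ (siRNA pools against Yap1 and against Wwtr1, the gene for TAZ) with siControl (non-targeting siRNA), at 8 pmol per cm2. The second compared Ad-TEADi, an adenovirus that expresses from a CMV promoter a genetically encoded inhibitor of the binding of YAP1 and TAZ to TEAD factors, with Ad-GFP, each at a multiplicity of infection of 25. Each group had 3 libraries, A to C, of cells harvested after 48 h. Nothing in the labels says whether A, B and C were separate cultures or animals, so the p-values measure the spread between these libraries, which may be technical. Values are CPM after the authors' scaling between libraries, and the step size of low values corresponds to depths of 19.97 M to 29.16 M reads per library. "Called" means an adjusted p below 0.05 in limma's moderated test on log2(CPM + 1), fitted over all 12966 genes that passed and adjusted by Benjamini-Hochberg, and folds are on that log2(CPM + 1) scale.

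The knockdown was visible in the targeted transcripts. Yap1 had 71.8, 62.5 and 67.2 CPM in siYAP1+TAZ libraries, against 205.9, 196.4 and 186.8 CPM in siControl libraries. Wwtr1 had 30.0, 26.1 and 28.1 CPM in siYAP1+TAZ libraries, against 56.5, 52.9 and 56.1 CPM in siControl libraries. The 10 keratinocyte markers examined summed to 50500 to 55300 CPM in every group, but single markers moved both ways. With siYAP1+TAZ 5 were called higher and 4 lower, with log2 changes from -0.85 to 1.27. With Ad-TEADi 6 were called higher and 4 lower, with changes from -0.463 to 0.614. Over all genes 68.9% and 59.8% were called in either direction in these comparisons. The markers of other cell types summed to at most 49.4 CPM per list in any library, but some of these low sums moved with treatment. The immune list (4 of 6 genes in the table) summed to 47.6 to 49.4 CPM with siYAP1+TAZ against 16.0 to 16.9 CPM with siControl, and to 37.2 to 41.7 CPM with Ad-TEADi against 15.9 to 18.4 CPM with Ad-GFP. Cd68 made up most of that sum, and the pan-leukocyte gene Ptprc stayed at or below 0.508 CPM in every library. The adipocyte list (3 of 5 genes) summed to 8.81 to 10.2 CPM with siYAP1+TAZ against 2.14 to 2.37 CPM with siControl, and to 4.79 to 5.6 CPM with Ad-TEADi against 0.996 to 1.3 CPM with Ad-GFP. The fibroblast list (6 of 7 genes) summed to 11.9 to 17.9 CPM with siYAP1+TAZ against 8.22 to 11.6 CPM with siControl, and to 9.53 to 9.99 CPM with Ad-TEADi against 6.1 to 7.07 CPM with Ad-GFP. The melanocyte sums were also higher in both treated groups, the endothelial sums overlapped between treated and control libraries, and the muscle sums were below 1 CPM. The part of these cells in the results below was not tested. In bulk RNA fewer cells and less RNA per cell cannot be told apart.

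The start regions of 5 genes, 1 for each complex, are shown so that the sequence behind the counts is visible (RefSeq, GRCm38.p6, 250 bases before to 50 bases after the annotated start, 5′ to 3′). These genes were chosen after their values were seen. Capitals mark matches to 3 motifs that are well known from promoters of respiratory genes, searched on both strands: the NRF1 core, the ETS core CCGGAAG bound by GABPA, and the YY1 core AAGATGG.
Ndufb6, chr4:40279372-40279671, minus strand: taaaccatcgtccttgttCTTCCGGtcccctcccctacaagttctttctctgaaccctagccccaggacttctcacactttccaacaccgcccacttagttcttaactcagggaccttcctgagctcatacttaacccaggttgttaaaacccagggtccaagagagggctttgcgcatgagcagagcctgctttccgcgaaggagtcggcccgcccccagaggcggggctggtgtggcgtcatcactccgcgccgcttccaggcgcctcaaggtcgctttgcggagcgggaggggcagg
Sdhd, chr9:50603800-50604099, minus strand: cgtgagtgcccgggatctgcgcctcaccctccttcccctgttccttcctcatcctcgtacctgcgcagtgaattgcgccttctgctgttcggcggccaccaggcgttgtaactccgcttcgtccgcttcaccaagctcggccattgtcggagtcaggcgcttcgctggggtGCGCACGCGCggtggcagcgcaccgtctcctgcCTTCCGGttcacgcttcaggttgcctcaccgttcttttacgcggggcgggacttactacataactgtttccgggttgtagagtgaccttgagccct
Uqcr11, chr10:80406772-80407071, minus strand: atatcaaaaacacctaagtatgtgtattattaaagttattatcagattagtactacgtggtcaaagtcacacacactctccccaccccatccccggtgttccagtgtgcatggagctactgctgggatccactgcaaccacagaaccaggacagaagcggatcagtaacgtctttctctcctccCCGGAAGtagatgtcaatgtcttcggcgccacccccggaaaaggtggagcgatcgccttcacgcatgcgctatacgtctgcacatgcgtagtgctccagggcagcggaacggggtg
Cox7c, chr13:86046746-86047045, minus strand: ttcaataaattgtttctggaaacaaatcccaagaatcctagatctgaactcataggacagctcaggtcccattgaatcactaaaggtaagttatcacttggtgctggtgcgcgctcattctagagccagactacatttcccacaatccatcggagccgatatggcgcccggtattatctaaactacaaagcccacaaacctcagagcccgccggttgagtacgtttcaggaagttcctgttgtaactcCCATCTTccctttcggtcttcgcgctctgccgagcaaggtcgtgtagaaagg
Atp5g3, chr2:73911277-73911576, minus strand: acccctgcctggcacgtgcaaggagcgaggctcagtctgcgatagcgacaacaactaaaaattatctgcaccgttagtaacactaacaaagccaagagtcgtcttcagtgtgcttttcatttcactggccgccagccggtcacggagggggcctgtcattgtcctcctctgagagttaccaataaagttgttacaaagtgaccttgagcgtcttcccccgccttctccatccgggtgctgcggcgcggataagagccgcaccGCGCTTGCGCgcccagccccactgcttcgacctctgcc
Ndufb6 and Uqcr11 hold 1 ETS core each, Sdhd an NRF1 core followed by an ETS core, Cox7c a YY1 core next to its start, and Atp5g3 an NRF1 core. Of the 77 members 64 had an entry in the promoter table. The NRF1 core was present in 16 of the 64 (25%), against 10.9% of 9753 promoters of tested genes. For the ETS core the shares were 15 of 64 (23.4%) and 19%, for the YY1 core 10 of 64 (15.6%) and 7.43%, and for the TEAD core GGAATG 7 of 64 (10.9%) and 11.9%. These are counts of letters and do not show binding.

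Small increases in many genes of complexes I, III, IV and V were called with Ad-TEADi, and none was called in complex II. By contrast, siYAP1+TAZ gave more lower than higher calls, and 14 of the lower calls were in genes called higher with Ad-TEADi. With Ad-TEADi 57 of 77 members were higher than with Ad-GFP and 3 were lower, and the median change was 0.22 on the log2 scale, against 0.032 over all genes tested. Over all genes 33.5% were called higher and 26.3% lower in that comparison, against 74% and 3.9% of the members, and 59.8% were called in either direction. With siYAP1+TAZ 8 members were higher and 30 lower than with siControl, with a median of -0.082 against -0.031 over all genes. The share of members called lower, 39%, was near the 36.1% over all genes, while the share called higher, 10.4%, was below the 32.7% over all genes, of which 68.9% were called in either direction. The groups did not overlap, with every treated library higher, for 59 members with Ad-TEADi (35.5% of all genes) and 9 with siYAP1+TAZ (34.4%), and with every treated library lower for 3 (28.5%) and 29 (37.8%). Summed over the 77 genes, the level was 6452 ± 101 CPM with siYAP1+TAZ and 6767 ± 222 CPM with siControl, and 7599 ± 305 CPM with Ad-TEADi and 6550 ± 99.5 CPM with Ad-GFP (SD, n = 3 each). By the authors' deposited table, whose test is not stated, 8 members were higher and 30 lower with siYAP1+TAZ, and 57 were higher and 2 lower with Ad-TEADi. Among all 17090 genes there, 28% were higher and 28.8% lower with siYAP1+TAZ, and 27.6% were higher and 21.4% lower with Ad-TEADi.

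The siRNA split depended on how libraries were scaled. Scaled by column totals instead of the authors' factors, which moved the median of all genes by -0.17 with siYAP1+TAZ and by -0.089 with Ad-TEADi, 1 member was higher and 63 were lower with siYAP1+TAZ, and 40 were higher and 3 lower with Ad-TEADi. On that scale 21.9% of all genes were higher and 55.1% lower with siYAP1+TAZ, and 23.4% were higher and 36.4% lower with Ad-TEADi, shares that stand behind every count by column totals given for these comparisons. Quantile normalization gave 3 higher and 52 lower with siYAP1+TAZ, and 39 higher and 2 lower with Ad-TEADi, with 27.4% and 43% of all genes in the siRNA comparison and 27.3% and 30.4% in the viral one. Relative to the median of all genes the members' median was -0.05 on the authors' scale, -0.065 by totals and -0.083 by quantiles for siYAP1+TAZ, and 0.187, 0.182 and 0.146 for Ad-TEADi.

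**Figure D1:**
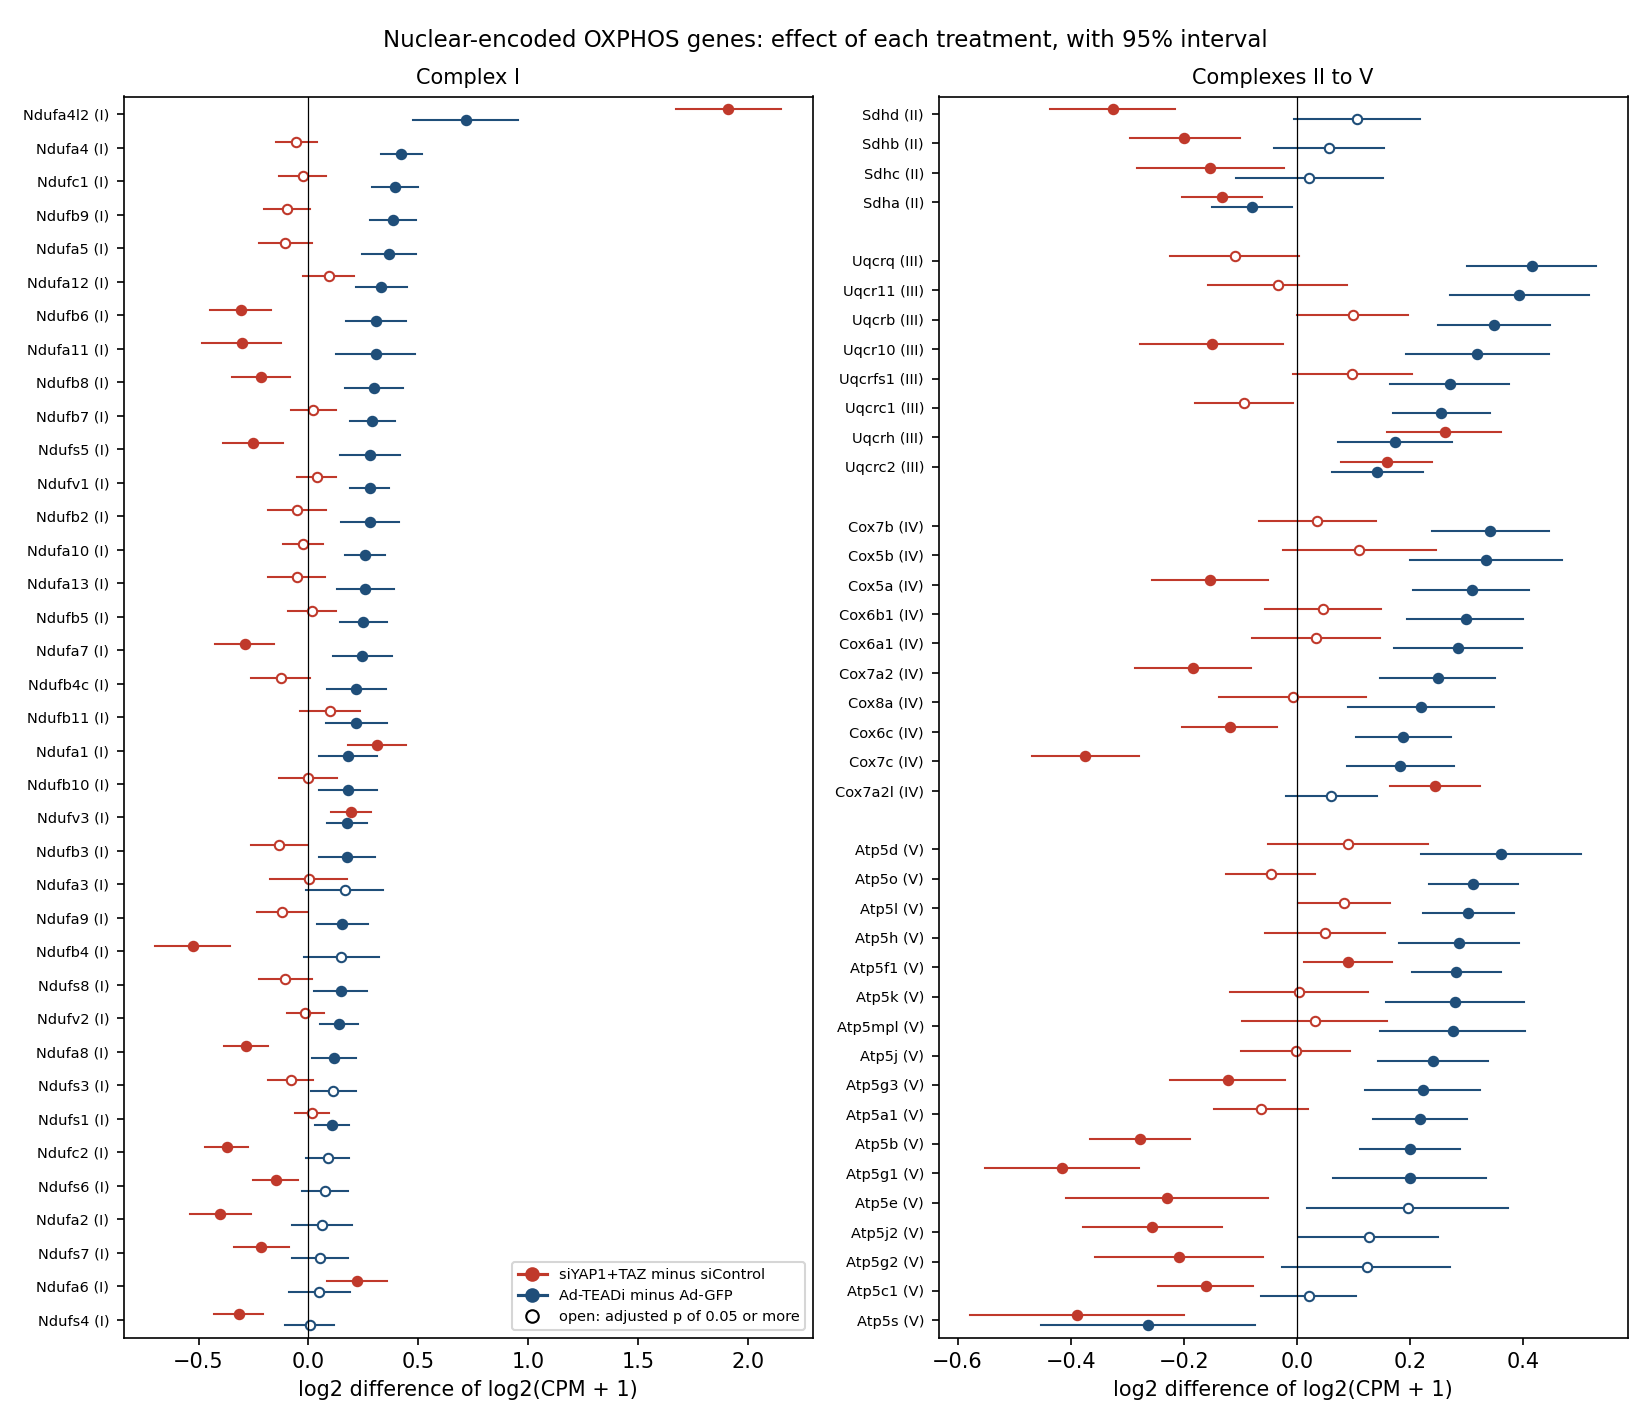
Log2 difference of the genes in both comparisons, with 1 of the 77 not shown, (x axis, log2(CPM + 1) scale) with its 95% interval, by complex, in the order of the Ad-TEADi effect. Filled points are called at an adjusted p below 0.05. Most Ad-TEADi points lie right of 0, with Sdha and Atp5s left of it, and most siYAP1+TAZ points lie left of 0.

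The 2 treatments were compared directly by the difference of their effects, siYAP1+TAZ minus siControl less Ad-TEADi minus Ad-GFP. This difference was below 0 for 69 members and called lower for 61 of 77 (79.2%), against 26.4% of all genes, and called higher for 3, against 25.1% of all genes. Its median was -0.28, against -0.017 over all genes. By column totals 67 members were lower and 1 higher, against 35.9% and 19.4% of all genes, and by quantile normalization 64 and 1, against 29% and 22.7%. Of the 77 genes, 14 were called lower with siYAP1+TAZ and higher with Ad-TEADi, a pattern held by 4.77% of all genes, and none the other way round (2.84% of all genes). Both treatments gave higher calls for 6 members (20.7% of all genes) and lower calls for 3 (17.6% of all genes). A further 37 were called higher with Ad-TEADi and not called with siYAP1+TAZ, and for 33 of these the difference itself was called. The share of all genes with this pair of results was not counted. Taking genes called in only 1 comparison already favours a called difference.

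**Figure D2:**
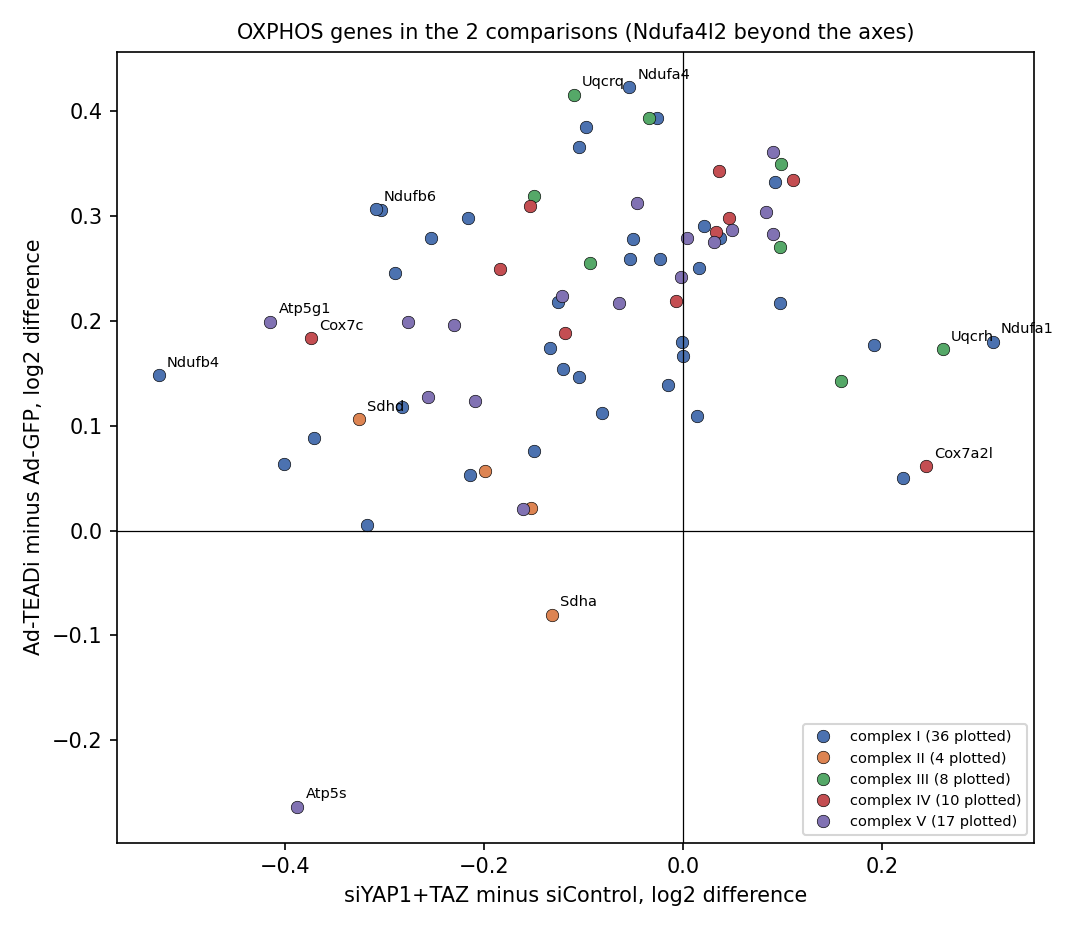
Log2 difference with siYAP1+TAZ against siControl (x axis) and with Ad-TEADi against Ad-GFP (y axis) for the genes coloured by complex, with Ndufa4l2 beyond the axes and 1 gene not shown. Most points lie above the horizontal line at 0, and Atp5s and Sdha lie below it.

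Complex I carries the entry of electrons from NADH, through core subunits that hold the redox centres and a larger set of accessory subunits around them. With siYAP1+TAZ 4 of its 38 genes (10.5%) were higher and 13 (34.2%) lower, with a median of -0.09, against 32.7% and 36.1% of all genes. These shares, and 33.5% higher and 26.3% lower with Ad-TEADi, stand behind every count by complex or list on the authors' scale. With Ad-TEADi 28 were higher and 1 lower, with a median of 0.2. Among the 29 accessory subunits 22 rose and none fell with Ad-TEADi, and 3 rose and 11 fell with siYAP1+TAZ. Among the 7 core subunits 4 rose and 1 fell with Ad-TEADi, and none rose and 2 fell with siYAP1+TAZ. By column totals complex I had 1 gene higher and 31 lower with siYAP1+TAZ, and 16 higher and 1 lower with Ad-TEADi.

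Ndufb6, an accessory subunit of the membrane arm, shows the opposite calls. It had 29.2, 30.3 and 28.2 CPM in siYAP1+TAZ libraries, against 38.4, 36.5 and 34.3 CPM in siControl libraries, a log2 change of -0.31 ± 0.066 (SE; limma adjusted p = 0.000341). In Ad-TEADi libraries it had 42.5, 42.5 and 35.0 CPM, against 33.4, 31.3 and 31.5 CPM in Ad-GFP libraries, a log2 change of 0.31 ± 0.066 (limma adjusted p = 0.000489). The groups did not overlap in either experiment, and the difference of the effects was -0.615 (limma adjusted p = 2.04e-05). Ndufb6 is on the minus strand of chromosome 4, and an exon of it overlaps Smim27 on the other strand, which had at most 1.54 CPM in any library. Ndufa11, Ndufa7 and Ndufs5 had the same pair of calls, with changes of -0.304, -0.29 and -0.253 with siYAP1+TAZ and 0.305, 0.245 and 0.279 with Ad-TEADi. Ad-GFP was itself below siControl for Ndufb6, Ndufa11, Ndufa7 and Ndufs5 (-0.179, -0.257, -0.301 and -0.275), which the choice of genes by the difference of effects favours. Their Ad-TEADi means were 40.0, 33.5, 55.5 and 43.1 CPM, against 36.4, 32.5, 57.6 and 42.9 CPM with siControl. Without the authors' scaling, by column totals, the Ad-TEADi change of Ndufa7 was 0.15 and no longer called (limma adjusted p = 0.0502).

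Ndufb4, another accessory subunit, had the largest fall with siYAP1+TAZ among the 77. It had 10.4, 8.56 and 9.11 CPM in siYAP1+TAZ libraries, against 14.99, 13.26 and 13.48 CPM in siControl libraries (log2 change -0.53, limma adjusted p = 1.05e-05). With Ad-TEADi it had 13.9, 12.7 and 12.3 CPM, against 10.6, 12.7 and 11.5 CPM with Ad-GFP, overlapping groups that were called apart only without Ad-GFP replicate B (0.21, limma adjusted p = 0.0446). The similarly named member Ndufb4c had a higher mean over all libraries, 23.2 CPM against 12.0 CPM for Ndufb4. Ndufb4c was called higher with Ad-TEADi and not called with siYAP1+TAZ, though its fall was called without siYAP1+TAZ replicate C (-0.19, limma adjusted p = 0.0184). Whether these entries share reads was not tested. Ndufa2 had 29.4, 29.6 and 33.0 CPM in siYAP1+TAZ libraries, against 43.8, 40.3 and 38.4 CPM in siControl libraries, and its change of 0.063 with Ad-TEADi was not called.

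The paralogs Ndufa4 and Ndufa4l2 behaved differently. Ndufa4 encodes a subunit of cytochrome c oxidase, and Ndufa4l2 is known as a hypoxia-inducible gene whose product lowers respiratory activity. Ndufa4l2 had 98.9, 79.3 and 86.3 CPM in siYAP1+TAZ libraries, against 26.2, 19.0 and 23.2 CPM in siControl libraries, the largest change of any member (log2 1.91 ± 0.12, SE; limma adjusted p = 1.19e-11). In Ad-TEADi libraries it had 62.4, 51.6 and 46.5 CPM, against 35.3, 26.8 and 34.5 CPM in Ad-GFP libraries (0.71 ± 0.12, SE; limma adjusted p = 2.33e-05). It was therefore 3.76-fold and 1.64-fold higher, with a difference of effects of 1.2 (limma adjusted p = 6.1e-06), and it was the single member called higher with siYAP1+TAZ under column totals (1.73).
Ndufa4 had 131.8, 128.5 and 124.3 CPM with siYAP1+TAZ, against 137.9, 137.6 and 124.4 CPM with siControl, overlapping groups with no call (-0.055), though its fall was called without siControl replicate C (-0.10, limma adjusted p = 0.042) and under column totals (-0.25). With Ad-TEADi it had 173.3, 177.1 and 164.6 CPM, against 131.3, 125.1 and 127.1 CPM with Ad-GFP, a 1.34-fold rise (limma adjusted p = 9.08e-08).
Ndufa4l2 (chromosome 10, 127514967 to 127517154, plus strand) overlaps exons of Shmt2 on the other strand, so reads of one may be counted for the other if strand was not used, which no source used here states. Shmt2 averaged 191.6 CPM with siYAP1+TAZ and 212.4 CPM with siControl, the opposite direction to Ndufa4l2, and 257.7 CPM with Ad-TEADi and 155.3 CPM with Ad-GFP, the same direction.

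**Figure D3:**
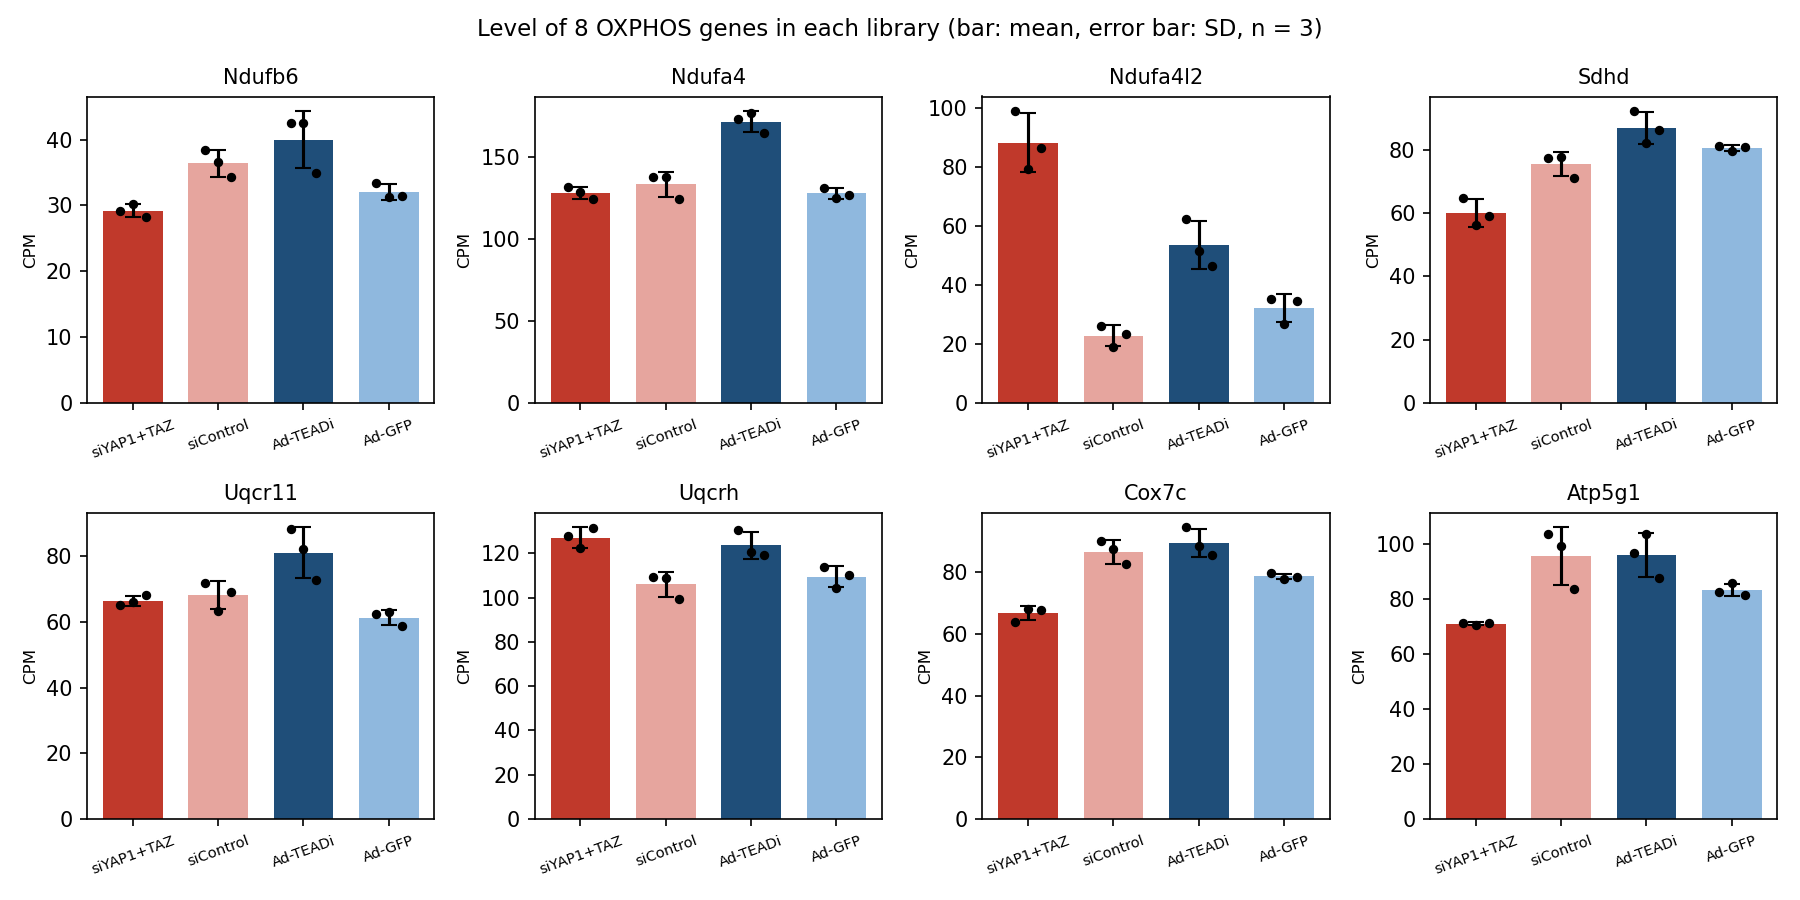
CPM of 8 genes in each library (points) with the group mean (bar, from 0) and SD (n = 3), for siYAP1+TAZ, siControl, Ad-TEADi and Ad-GFP. Ndufa4l2 is highest with siYAP1+TAZ, whereas Ndufb6, Cox7c and Atp5g1 are lowest there.

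Complex II, which is also an enzyme of the tricarboxylic acid (TCA) cycle, was the complex with no member called higher with Ad-TEADi. Its changes there were above 0 for 3 of 4 genes, with a median of 0.039. All 4 of its genes were lower with siYAP1+TAZ, with a median of -0.18, and Ad-TEADi gave 1 lower call. Sdhd, a membrane anchor (chromosome 9, 50596357 to 50603812), had 64.8, 56.3 and 59.1 CPM in siYAP1+TAZ libraries, against 77.4, 77.8 and 71.2 CPM in siControl libraries (log2 change -0.33, limma adjusted p = 2.06e-05). In Ad-TEADi libraries it had 92.3, 82.0 and 86.3 CPM, against 81.2, 79.5 and 81.0 CPM in Ad-GFP libraries (0.11, limma adjusted p = 0.0947), called without Ad-TEADi replicate B (0.15, limma adjusted p = 0.0407). Sdhb, the iron-sulphur subunit, had 32.7, 31.0 and 32.8 CPM with siYAP1+TAZ, against 36.7, 38.2 and 36.2 CPM with siControl (-0.2, limma adjusted p = 0.000858), and 45.2, 44.9 and 42.1 CPM with Ad-TEADi, against 43.0, 41.3 and 42.6 CPM with Ad-GFP (0.057, not called). The effects differed between experiments for Sdhd (-0.432) and Sdhb (-0.255).
Sdha, the flavoprotein, had 132.3, 132.4 and 136.3 CPM with siYAP1+TAZ, against 143.8, 149.3 and 146.6 CPM with siControl (-0.13, limma adjusted p = 0.00194). Its fall with Ad-TEADi, to 145.7, 143.3 and 143.2 CPM against 152.1, 153.7 and 151.4 CPM with Ad-GFP, sat at the threshold (-0.08, limma adjusted p = 0.0495). That call was lost in 11 of the 12 fits that each left out 1 library, the exception being siControl replicate A, with adjusted p up to 0.113 without Ad-TEADi replicate B. Under other scalings the fall was larger and called, at -0.177 by column totals (limma adjusted p = 0.000207) and -0.179 by quantiles (limma adjusted p = 0.000225), and the difference of effects for Sdha, not called on the authors' scale, was then called too (-0.147 and -0.162). Sdhc, the other anchor, had 55.04, 56.63 and 57.18 CPM with siYAP1+TAZ, against 68.2, 65.0 and 55.6 CPM with siControl, overlapping groups (-0.15, limma adjusted p = 0.035). Leaving out any 1 of siControl replicates A and B or siYAP1+TAZ replicates A, B and C ended that call, with a change of -0.094 and an adjusted p of 0.21 without siControl replicate A.

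Complex III was the one complex with every member higher with Ad-TEADi, 8 of 8, with a median of 0.29. With siYAP1+TAZ 2 were higher and 1 lower, with a median of 0.032. By column totals these became 6 higher with Ad-TEADi, and none higher and 4 lower with siYAP1+TAZ. Uqcrq, a small subunit, had 92.1, 85.8 and 76.5 CPM in Ad-TEADi libraries, against 62.9, 65.6 and 61.0 CPM in Ad-GFP libraries (log2 change 0.42, limma adjusted p = 1.89e-06). With siYAP1+TAZ it had 66.0, 69.0 and 69.6 CPM, against 76.4, 73.7 and 71.0 CPM with siControl (-0.11, limma adjusted p = 0.0806), a fall that was called without Ad-TEADi replicate A (adjusted p = 0.0481) or C (0.0345), and that was -0.301 by column totals (limma adjusted p = 2.82e-05) and -0.257 by quantiles (limma adjusted p = 0.000425). Uqcr11 had 88.2, 82.2 and 72.8 CPM with Ad-TEADi, against 62.3, 63.0 and 58.7 CPM with Ad-GFP (0.39, limma adjusted p = 9.64e-06), and 65.3, 66.0 and 68.2 CPM with siYAP1+TAZ, against 71.8, 63.5 and 69.2 CPM with siControl, which overlapped (-0.034, not called). By column totals and by quantiles Uqcr11 was called lower with siYAP1+TAZ (-0.224 and -0.171, limma adjusted p = 0.00112 and 0.015). In both Uqcrq and Uqcr11 Ad-TEADi replicate C was the lowest of its group and still above every Ad-GFP library.
Uqcrb, another small subunit, had 97.8, 97.9 and 97.4 CPM with Ad-TEADi, against 82.0, 73.8 and 74.0 CPM with Ad-GFP (0.35, limma adjusted p = 2.82e-06). Its change with siYAP1+TAZ was 0.098 and not called (limma adjusted p = 0.0717). It was called higher under 3 alternatives, among them leaving out siYAP1+TAZ replicate B (0.13, limma adjusted p = 0.0386), and was -0.093, not called, by column totals.
Uqcrh, the hinge protein, and Uqcrc2, a core subunit, were higher in both experiments. Uqcrh had 127.6, 122.2 and 131.4 CPM with siYAP1+TAZ, against 109.4, 108.9 and 99.5 CPM with siControl (0.26, limma adjusted p = 8.06e-05), and 130.7, 120.5 and 119.3 CPM with Ad-TEADi, against 113.6, 104.4 and 110.2 CPM with Ad-GFP (0.17, limma adjusted p = 0.00428). By column totals these changes were 0.0693 and 0.0765 and neither was called. Uqcrc2 changed by 0.16 with siYAP1+TAZ and 0.14 with Ad-TEADi, and by column totals by -0.033 and 0.045, neither called. Uqcr10, called lower with siYAP1+TAZ (-0.15, limma adjusted p = 0.0334) and higher with Ad-TEADi (0.32), lost the siRNA call without siControl replicate A or B or siYAP1+TAZ replicate B or C, with a change of -0.099 and an adjusted p of 0.185 without siControl replicate A.

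Complex IV had 9 of 10 members higher with Ad-TEADi and none lower, with a median of 0.27, and 1 higher and 4 lower with siYAP1+TAZ, with a median of 0.013. By column totals 7 were higher with Ad-TEADi, and none was higher and 8 were lower with siYAP1+TAZ. Cox7c (chromosome 13, 86044816 to 86046904) had 64.0, 68.0 and 67.9 CPM in siYAP1+TAZ libraries, against 90.1, 87.3 and 82.5 CPM in siControl libraries (log2 change -0.37 ± 0.045, SE; limma adjusted p = 4.48e-07). In Ad-TEADi libraries it had 94.5, 88.4 and 85.4 CPM, against 79.6, 77.8 and 78.3 CPM in Ad-GFP libraries (0.18 ± 0.045, SE; limma adjusted p = 0.00173), a rise that was not called by column totals (0.087) or by quantiles (0.08). Cox5a had 74.3, 67.8 and 69.0 CPM with siYAP1+TAZ, against 80.5, 80.5 and 74.3 CPM with siControl (-0.15, limma adjusted p = 0.00901), and 91.2, 89.5 and 86.7 CPM with Ad-TEADi, against 73.8, 67.2 and 74.6 CPM with Ad-GFP (0.31, limma adjusted p = 2.05e-05).
Cox7b had 130.9, 128.1 and 124.1 CPM with Ad-TEADi, against 107.9, 92.2 and 101.9 CPM with Ad-GFP (0.34, limma adjusted p = 6.74e-06). Cox5b had 102.2, 94.2 and 82.6 CPM with Ad-TEADi, against 72.2, 75.1 and 72.6 CPM with Ad-GFP (0.33, limma adjusted p = 0.000179). On the authors' scale neither was called with siYAP1+TAZ. Cox7b was called lower there by column totals and by quantiles (-0.155 in both, limma adjusted p = 0.00631 and 0.0062), and Cox5b was called higher without siControl replicate C (0.18, limma adjusted p = 0.0162).
Cox7a2 and Cox7a2l, related proteins, had opposite calls with siYAP1+TAZ. Cox7a2l, which is known for its place in respiratory supercomplexes, had 168.8, 162.6 and 161.7 CPM with siYAP1+TAZ, against 143.5, 136.5 and 136.0 CPM with siControl (0.24, limma adjusted p = 1.16e-05), but by column totals its change was 0.052 and not called. With Ad-TEADi it had 146.1, 140.5 and 137.2 CPM, against 136.5, 136.7 and 132.8 CPM with Ad-GFP (0.061, not called), and its effects differed between experiments by 0.18 (limma adjusted p = 0.00795). Cox7a2 had 69.8, 73.7 and 74.7 CPM with siYAP1+TAZ, against 80.9, 88.3 and 79.1 CPM with siControl (-0.18, limma adjusted p = 0.00262), and changed by 0.25 with Ad-TEADi.
Cox6a1, Cox6b1 and Cox8a had changes of 0.28, 0.30 and 0.22 with Ad-TEADi, all called, and of 0.033, 0.046 and -0.0077 with siYAP1+TAZ, none called. By column totals all 3 were called lower with siYAP1+TAZ (-0.157, -0.146 and -0.199), and the Ad-TEADi call of Cox8a was lost (0.123, limma adjusted p = 0.0753), as it was by quantiles (0.127, limma adjusted p = 0.0935).

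Complex V had 12 of 17 members higher and 1 lower with Ad-TEADi, with a median of 0.22, and 1 higher and 8 lower with siYAP1+TAZ, with a median of -0.064. By column totals the counts were 11 and 1 with Ad-TEADi, and 0 and 16 with siYAP1+TAZ. The difference of the effects was called lower for 16 of 17. Subunit c, which forms the rotating ring, is encoded by Atp5g1, Atp5g2 and Atp5g3, which differ in their import sequences and give the same mature protein. All 3 were called lower with siYAP1+TAZ. Atp5g1 had 71.4, 70.4 and 71.5 CPM in siYAP1+TAZ libraries, against 103.8, 99.2 and 83.6 CPM in siControl libraries (log2 change -0.41 ± 0.065, SE; limma adjusted p = 1.17e-05). With Ad-TEADi it had 96.7, 103.7 and 87.5 CPM, against 82.7, 85.7 and 81.5 CPM with Ad-GFP (0.2, limma adjusted p = 0.0124), a call lost without Ad-TEADi replicate B (0.14, limma adjusted p = 0.0888) and by column totals (0.10).
Atp5g3 had 160.6, 155.5 and 161.5 CPM with siYAP1+TAZ, against 184.0, 177.2 and 159.7 CPM with siControl, groups that overlapped (-0.12, limma adjusted p = 0.031), and 202.4, 198.1 and 184.0 CPM with Ad-TEADi, against 170.3, 161.6 and 168.2 CPM with Ad-GFP (0.22, limma adjusted p = 0.000561). Atp5g2 fell by 0.21 with siYAP1+TAZ (limma adjusted p = 0.0135) and changed by 0.12, uncalled, with Ad-TEADi. The siRNA call of Atp5g3 was lost without siControl replicate A or B or siYAP1+TAZ replicate A or B (adjusted p up to 0.178), and that of Atp5g2 without siControl replicate B or C or siYAP1+TAZ replicate A or B (adjusted p up to 0.0766).
In the catalytic head Atp5b, the beta subunit, had 721.2, 692.0 and 708.2 CPM with siYAP1+TAZ, against 888.7, 873.3 and 811.3 CPM with siControl (-0.28, limma adjusted p = 8.59e-06), and 988.5, 961.2 and 927.4 CPM with Ad-TEADi, against 846.1, 824.7 and 833.9 CPM with Ad-GFP (0.2, limma adjusted p = 0.000433). That rise was 0.102 by column totals (limma adjusted p = 0.0322) and 0.0807, no longer called, by quantiles (limma adjusted p = 0.0697). Atp5d, the delta subunit, had 128.8, 122.3 and 99.5 CPM with Ad-TEADi, against 86.7, 95.3 and 88.8 CPM with Ad-GFP (0.36, limma adjusted p = 0.000126).
Atp5l, a small membrane subunit, had 166.3, 161.7 and 156.7 CPM with Ad-TEADi, against 135.5, 128.1 and 128.8 CPM with Ad-GFP (0.30, limma adjusted p = 1.38e-06). On the authors' scale neither Atp5d nor Atp5l was called with siYAP1+TAZ. The direction of Atp5l depended on the scaling: its change there was 0.083, called higher under 3 alternatives, among them leaving out siControl replicate A (0.11, limma adjusted p = 0.0365), and it was called lower by column totals (-0.109, limma adjusted p = 0.0122) and by quantiles (-0.139, limma adjusted p = 0.00266). All 4 peripheral stalk genes (Atp5f1, Atp5h, Atp5j, Atp5o) rose with Ad-TEADi, by 0.24 to 0.31, and with siYAP1+TAZ they lay between -0.046 and 0.09, with 1 called, while Atp5o was called lower by column totals (-0.238) and by quantiles (-0.213). Atp5o has more than 1 GENCODE gene under its symbol and overlaps Donson, so its counts are uncertain. Atp5s, which is not a structural subunit, was lower in both: 5.28, 4.96 and 4.17 CPM with siYAP1+TAZ, against 7.08, 6.22 and 6.43 CPM with siControl, and 5.37, 5.78 and 5.13 CPM with Ad-TEADi, against 6.82, 6.06 and 7.27 CPM with Ad-GFP. Its changes were -0.39 (limma adjusted p = 0.00084) and -0.26 (limma adjusted p = 0.0173), and the Ad-TEADi call was lost without Ad-GFP replicate C (adjusted p = 0.0831) or Ad-TEADi replicate C (adjusted p = 0.0615) and by quantiles (adjusted p = 0.0562).

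**Figure D4:**
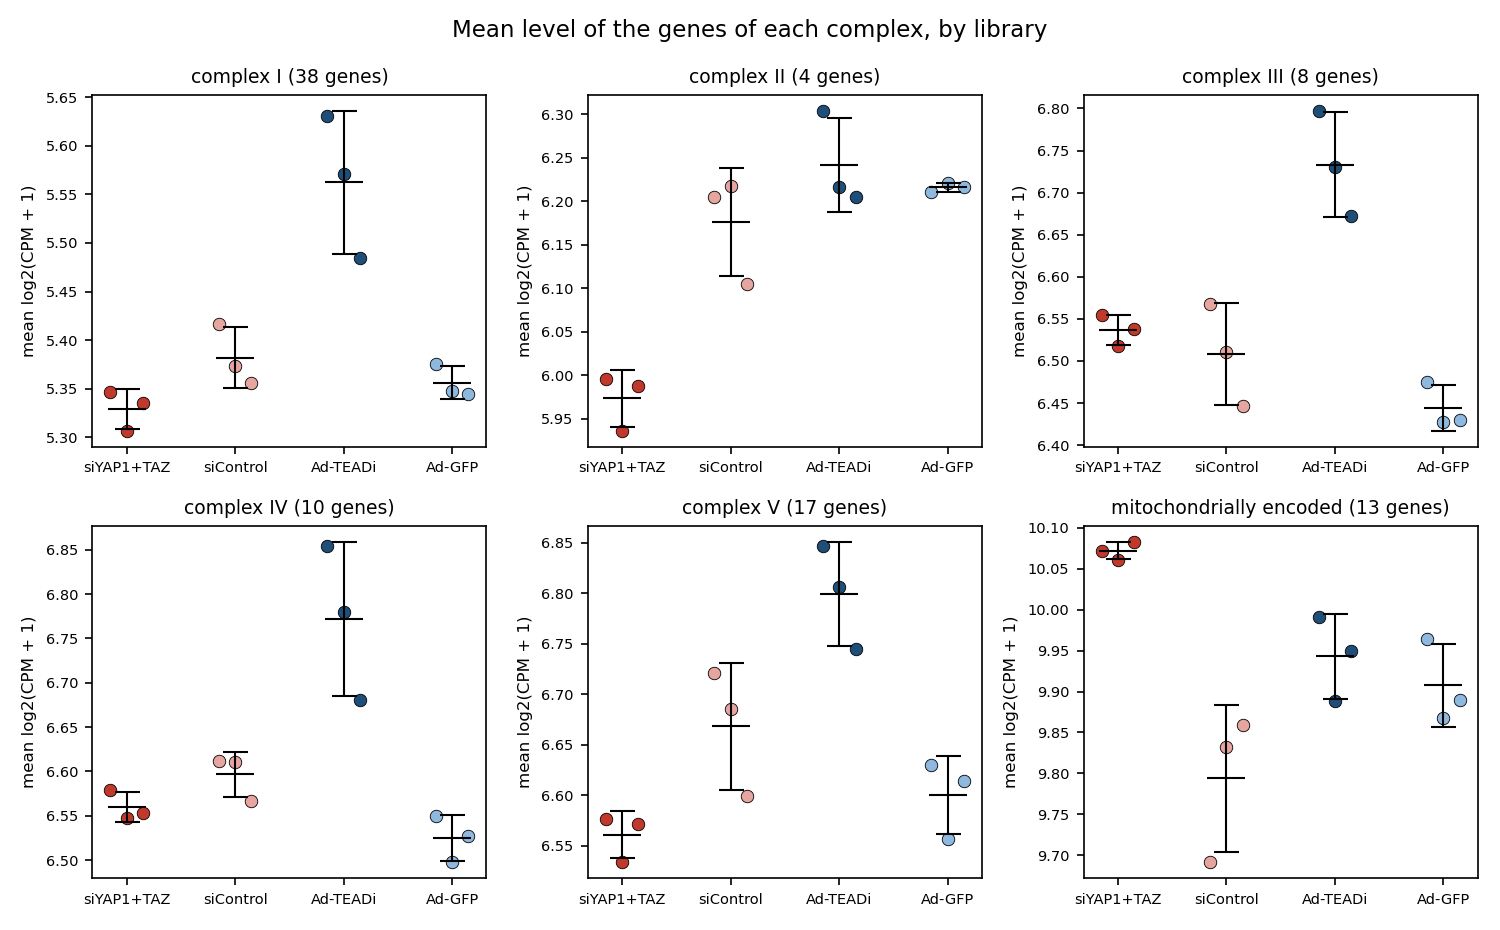
Mean log2(CPM + 1) over the genes of each complex and over the mitochondrially encoded genes in each library (points), with the group mean and SD (n = 3). The Ad-TEADi libraries lie above the Ad-GFP libraries in complexes I, III, IV and V, and the siYAP1+TAZ libraries lie lowest in complex II and highest for the mitochondrially encoded genes.

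The partner subunits made from mitochondrial DNA did not follow. Of 13 genes 12 were higher and none lower with siYAP1+TAZ, with a median of 0.23, and 1 was higher and 1 lower with Ad-TEADi. Of the 13, 10 had a difference of effects called higher and none lower, the reverse of the nuclear genes on the authors' scale. Cytochrome b (mt-Cytb) had 3596, 3634 and 3696 CPM with siYAP1+TAZ, against 2809, 3052 and 3237 CPM with siControl (0.27, limma adjusted p = 0.000316), and 3158, 2884 and 3127 CPM with Ad-TEADi, against 3579, 3465 and 3510 CPM with Ad-GFP (-0.2, limma adjusted p = 0.004). mt-Nd6, the one subunit encoded on the other strand of the mitochondrial genome, rose in both experiments, to 23.3, 29.6 and 37.0 CPM with siYAP1+TAZ, against 15.66, 16.95 and 14.27 CPM with siControl, and to 36.22, 29.45 and 34.35 CPM with Ad-TEADi, against 16.7, 12.8 and 14.3 CPM with Ad-GFP. The siRNA direction was scale-dependent: by column totals 1 of the 13 was higher and 1 lower with siYAP1+TAZ (median 0.038) and 1 was higher and 7 lower with Ad-TEADi, while the difference was still called higher for 6 and lower for none. By quantile normalization 1 was higher and 2 lower with siYAP1+TAZ (median 0.011), and 1 higher and 3 lower with Ad-TEADi. The difference was then called higher for only 2 and lower for none (median 0.088).

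Other nuclear genes for mitochondrial proteins were counted from lists. Of 78 mitochondrial ribosomal proteins 3 were higher and 40 lower with siYAP1+TAZ, and 33 higher and 4 lower with Ad-TEADi, and the difference was lower for 51 and higher for none. Of 26 import genes 1 was higher and 15 lower with siYAP1+TAZ, and 15 higher and none lower with Ad-TEADi, and the difference was lower for 19. Grpel1, a cochaperone of the import motor, rose in both (0.30 and 0.50). Of 19 TCA cycle genes 2 were higher and 11 lower with siYAP1+TAZ, and 10 higher and 1 lower with Ad-TEADi, and the difference was lower for 16 and higher for 1. Fh1, fumarate hydratase, averaged 34.2 CPM with siYAP1+TAZ and 47.0 CPM with siControl (-0.45), and Idh2 averaged 50.8 CPM with Ad-TEADi and 32.7 CPM with Ad-GFP (0.62). By column totals the Ad-TEADi counts were 14 higher and 11 lower for the mitochondrial ribosome, 8 and 5 for import and 4 and 6 for the TCA cycle. By quantile normalization they were 24 and 5, 11 and 2, and 4 and 5, against 27.3% higher and 30.4% lower over all genes. The number of genes called higher with Ad-TEADi was thus scale-dependent in these lists. By column totals the difference stayed lower for 67, 22 and 16 genes and higher for none.
Of 6 genes for subunits left out by the rule, Ndufb1-ps (matched but dropped for its name) among them, 3 were lower with siYAP1+TAZ and 5 higher with Ad-TEADi. Cyc1, cytochrome c1 of complex III, averaged 69.3 CPM with siYAP1+TAZ and 78.0 CPM with siControl (-0.17), and 89.7 CPM with Ad-TEADi and 70.6 CPM with Ad-GFP (0.34).

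Of 49 assembly factors 5 were higher and 23 lower with siYAP1+TAZ, and 10 (20.4%) higher and 7 (14.3%) lower with Ad-TEADi, both below the shares over all genes. Acad9, needed to assemble complex I, averaged 118.2 CPM with siYAP1+TAZ and 59.4 CPM with siControl (0.98, limma adjusted p = 4.73e-14), and 86.5 CPM with Ad-TEADi and 55.3 CPM with Ad-GFP (0.64). Higd1a, a hypoxia-inducible partner of complex IV, averaged 207.8 CPM with siYAP1+TAZ and 120.9 CPM with siControl (0.78), and 164.8 CPM with Ad-TEADi and 91.5 CPM with Ad-GFP (0.84). Ttc19, which acts on complex III, fell in both (-0.81 and -0.56).
Among 23 regulators of mitochondrial gene expression 7 (30.4%) were higher and 5 (21.7%) lower with siYAP1+TAZ, and 9 (39.1%) higher and 1 (4.35%) lower with Ad-TEADi. The shares called higher were near those over all genes. Nrip1, a corepressor of oxidative genes, averaged 81.2 CPM with siYAP1+TAZ and 37.5 CPM with siControl (1.1), and 45.5 CPM with Ad-TEADi and 30.9 CPM with Ad-GFP (0.54). Gabpb1, the partner of GABPA, averaged 32.1 CPM with Ad-TEADi and 22.2 CPM with Ad-GFP (0.52), and Myc averaged 99.3 CPM with Ad-TEADi and 147.4 CPM with Ad-GFP (-0.56).
Of 11 genes for cytochrome c and inner membrane carriers 5 (45.5%) were higher and 4 (36.4%) lower with siYAP1+TAZ, and 4 (36.4%) higher and 2 (18.2%) lower with Ad-TEADi. Slc25a4, an ADP/ATP carrier, fell in both (-0.57 and -0.36).
Of 10 genes for fission, fusion and mitophagy 4 were higher and 4 lower with siYAP1+TAZ (40% each), and 3 higher and 3 lower with Ad-TEADi (30% each). These shares were near those over all genes. The mitophagy receptor Bnip3 averaged 209.2 CPM with siYAP1+TAZ and 126.7 CPM with siControl (0.72), and 156.3 CPM with Ad-TEADi and 103.7 CPM with Ad-GFP (0.59), while the fusion gene Mfn2 fell in both (-0.56 and -0.28).
Of 10 genes for pyruvate and lactate handling 1 was higher and 5 lower with siYAP1+TAZ, and 2 higher and 5 lower with Ad-TEADi. Ldha, which makes lactate, averaged 1396 CPM with Ad-TEADi and 1157 CPM with Ad-GFP (0.27), and Ldhb averaged 20.5 CPM with Ad-TEADi and 34.0 CPM with Ad-GFP (-0.7).
Cytosolic ribosomal proteins, another set of short and abundant transcripts, gave 45 higher and 1 lower of 85 with siYAP1+TAZ and 74 higher and 1 lower with Ad-TEADi, and by column totals 4 higher and 27 lower with siYAP1+TAZ and 45 higher and 1 lower with Ad-TEADi. Many OXPHOS messages are short as well, and 18 of the 77 have under 1 kb of exon. Of all 636 tested genes of that length 35.2% were higher and 7.39% lower with Ad-TEADi, with a median of 0.13, and 25.6% were higher and 21.9% lower with siYAP1+TAZ. The part of transcript length in the members' changes was not tested.

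**Figure D5:**
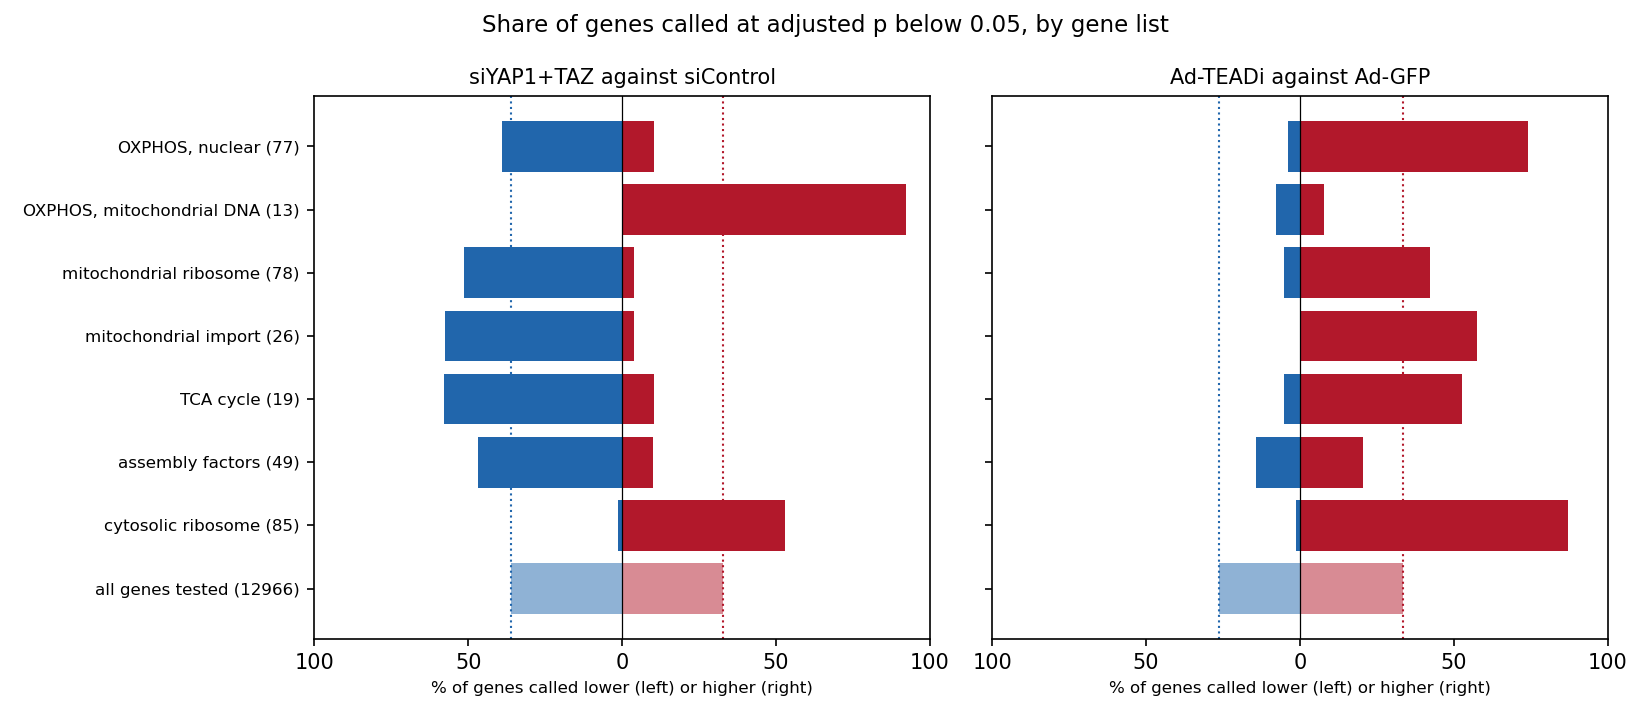
Percent of tested genes called higher (right, red) or lower (left, blue) in each comparison, by list, with all genes tested at the bottom and as dotted lines. Nuclear OXPHOS genes reach 74% higher with Ad-TEADi, and mitochondrially encoded genes 92.3% higher with siYAP1+TAZ on the authors' scale.

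With Ad-GFP 6 members were higher and 21 lower than with siControl, with a median of -0.046, against 18.7% higher, 21.8% lower and 40.4% in either direction over all genes, so the members' calls were near the background for lower and below it for higher. By column totals the counts were 14 and 10, against 24.5% and 17.1% of all genes. On the authors' scale the 6 genes with the largest opposite calls all lay lower with Ad-GFP, with changes from -0.138 (Cox7c) to -0.301 (Ndufa7). These genes were picked by the size of the difference of effects, which contains both controls. That choice favours low Ad-GFP and high siControl values, so no conclusion is drawn from their direction. Virus and transfection, which separate these controls, cannot be told apart from any other difference between the experiments.

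The members varied together only in part. Correlated over the 12 libraries with the mean of the other members, as a description of samples that share groups and scaling, 32 of 77 had Pearson's r above 0.8 and 3 had r below 0, with a median of 0.759. The genes of the whole table outside the list most like the members' mean were Npm3 (r = 0.975), Ddx39 (0.968), Emg1 (0.962), Rpn2 (0.962) and Tomm6 (0.958) over 12 libraries. Members with no exon overlap with another gene numbered 50. Of these 36 were higher and 2 lower with Ad-TEADi, and 5 higher and 21 lower with siYAP1+TAZ. Many OXPHOS genes have processed pseudogene copies in the mouse genome, and reads shared with them could be placed on either.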

How the data were processed

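Messenger RNA was sequenced from 12 libraries of cultured keratinocytes, 3 in each of 4 groups. The deposited gene table holds CPM scaled by the authors with TMM factors, and a second deposited table gives the authors' ratio, p-value and adjusted p-value for each comparison, per the file headers. The submitters' processing notes name cutadapt 1.18, STAR 2.7.0f, Partek 8.0.19.0819 and the mm10 build. How reads were counted, and whether by strand, is not given in the sources used. Values came out within 0.1 of whole reads for under 95% of low values, so no count test was run.

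A gene was tested if 3 or more libraries reached 1 CPM, which left 12966. The test was limma (version 3.58.1, under R version 4.3.3) applied to log2(CPM + 1) with 1 mean per group, an abundance trend in the variance, 2-sided tests and Benjamini-Hochberg adjustment over all genes. The method was tested on simulated data. Replicate letters were not treated as pairs. Positions are those deposited and match GENCODE vM21 for 99.9% of genes. The genes given by library were all Sdh genes, the 3 largest called changes of each other complex in each comparison, isoform families and the 6 genes with the largest opposite calls, and for other lists up to 2 of the largest called changes each way. Of these, 1 gene is counted but not reported here. Members and lists were chosen with earlier results of these data known. Alternatives were other scalings, pseudocounts and filters, a fold minimum of 1.2, fits of 6 libraries, a replicate block and leaving out each library.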

Additional observations from a re-analysis of the deposited data

Results flagged for a closer look

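The effect of siYAP1+TAZ against siControl and that of Ad-TEADi against Ad-GFP differed, by the interaction term of the limma fit, for 3 OXPHOS genes with a higher and 61 with a lower effect in the siRNA experiment. The differences given here are log2 values, the siYAP1+TAZ effect minus the Ad-TEADi effect.
Among complex I genes the difference was -0.68 for Ndufb4, -0.615 for Ndufb6, -0.609 for Ndufa11, -0.535 for Ndufa7, -0.53 for Ndufs5, -0.48 for Ndufa4, -0.46 for Ndufa2 and 1.2 for Ndufa4l2.
In complex II it was -0.432 for Sdhd and -0.255 for Sdhb.
In complex III it was -0.525 for Uqcrq, -0.47 for Uqcr10, -0.43 for Uqcr11 and -0.25 for Uqcrb.
In complex IV it was -0.56 for Cox7c, -0.46 for Cox5a, -0.43 for Cox7a2, -0.31 for Cox7b, -0.25 for Cox6a1, -0.25 for Cox6b1, -0.23 for Cox8a, -0.22 for Cox5b and 0.18 for Cox7a2l.
In complex V it was -0.61 for Atp5g1, -0.48 for Atp5b, -0.36 for Atp5o, -0.345 for Atp5g3, -0.33 for Atp5g2, -0.27 for Atp5d and -0.22 for Atp5l.
The call of Cox7a2l was lost by column totals (0.088) and by quantiles (0.068). Of 20 alternatives each, the call was lost in 12 for Cox5b, 11 for Cox8a and 5 for Atp5d. The smallest of these differences came without siControl replicate C for Cox5b (-0.15), and without Ad-TEADi replicate A for Cox8a (-0.145) and Atp5d (-0.20), and the call was also lost for Cox5b without Ad-TEADi replicate A or siYAP1+TAZ replicate C and for Cox8a without siYAP1+TAZ replicate C or Ad-TEADi replicate B.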

How the results depend on the processing

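With siYAP1+TAZ, 8 higher and 30 lower calls became 1 and 63 by column totals, 3 and 52 by quantile normalization and 2 and 14 with a 1.2-fold minimum. With Ad-TEADi, 57 higher calls became 30 with the fold minimum. For the difference of effects, 3 higher calls became 1 by column totals and 1 by quantiles. For Ad-GFP against siControl, 6 higher and 21 lower became 14 and 10 by column totals, 11 and 12 by quantiles, and 12 lower with no trend. Uqcrc2 reversed with siYAP1+TAZ to -0.033 by column totals (limma adjusted p = 0.417) and -0.037 by quantiles (limma adjusted p = 0.372), with adjusted p from 0.000313 to 0.417 over its alternatives. The cause was not tested.
Leaving out 1 library gave 7 to 10 higher and 24 to 33 lower with siYAP1+TAZ, 50 to 59 higher and 1 to 3 lower with Ad-TEADi (1 lower without Ad-GFP replicate C or Ad-TEADi replicate C), 2 to 3 higher and 55 to 63 lower for the difference, and 5 to 7 higher and 10 to 23 lower for Ad-GFP against siControl (10 without siControl replicate A, 12 without siControl replicate B, 13 without Ad-GFP replicate B, 12 without Ad-GFP replicate C). After removal of group means, same-letter libraries correlated between groups by -0.0136 to 0.0874 in the siRNA experiment, and different-letter ones by -0.0777 to 0.0527. In the viral experiment the ranges were -0.00355 to 0.161 and -0.166 to 0.0282. There B with B (0.147) and C with C (0.161) lay above B with C (-0.143 and -0.166). Whether the letters pair the samples cannot be settled from these values. A replicate block gave 10 higher and 33 lower with siYAP1+TAZ, 61 and 3 with Ad-TEADi, 3 and 61 for the difference and 7 and 23 for Ad-GFP against siControl.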
